A study of Mus musculus with 4 samples.

Results

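The 10 genes described here carry out MHC class I antigen presentation. They were chosen by symbol from the 55401 genes of the deposited transcript tables: the heavy chain genes H2-K1, H2-D1 and H2-Q7, the light chain gene B2m, the peptide transporter genes Tap1 and Tap2, the tapasin gene Tapbp, the immunoproteasome genes Psmb8 and Psmb9, and the regulator gene Nlrc5. All 10 genes were found in each table and all 10 passed the expression filter. RNA-seq of tibial bone marrow was done in 2 groups of wild-type male C57/B6 mice that were given a high-fat diet from the age of 8 weeks: obese mice without running (Ob, n = 2 libraries), and obese mice that ran on a treadmill at moderate intensity for 12 weeks while on the diet (Ob + Exe, n = 2 libraries). The comparison of the groups asks how running changed the marrow of obese mice, and no lean group was among the samples analysed here.

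MHC class I molecules sit on the surface of nearly all nucleated cells and show peptides from the inside of the cell to CD8+ T cells and natural killer cells. The immunoproteasome cuts cytosolic proteins into peptides, the Tap1 and Tap2 proteins pump the peptides into the endoplasmic reticulum, and tapasin brings empty class I molecules to the pump so that they can be loaded. In marrow, nearly all of the white cell precursors carry class I molecules, and the pathway is induced by interferons and by Nlrc5, which is brought to class I promoters by a complex of DNA-binding factors on the X and Y boxes.

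The promoters of the heavy chain genes and B2m are shown first, since the letters of the X2 and Y boxes, the background sites of Nlrc5 recruitment, were found side by side in them. Promoter windows of 250 bases before to 50 bases after the gene start came from RefSeq (GRCm38.p6) and were matched by symbol for 8 of the 10 genes; Tap2 and Nlrc5 were not matched. In each line the capitals mark the core of the X2 box (TGACG) and the Y box (ATTGG, the reverse complement of CCAAT), read 5′ to 3′ along the gene's strand.
H2-K1: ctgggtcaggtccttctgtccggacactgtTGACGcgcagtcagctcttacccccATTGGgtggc
H2-D1: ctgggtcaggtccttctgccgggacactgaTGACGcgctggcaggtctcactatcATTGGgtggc
H2-Q7: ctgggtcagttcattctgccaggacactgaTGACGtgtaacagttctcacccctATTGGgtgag
B2m: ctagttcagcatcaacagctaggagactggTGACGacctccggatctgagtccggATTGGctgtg

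These stretches lie at chr17:34000354-34000418 (minus strand) for H2-K1, chr17:35262963-35263027 (plus strand) for H2-D1, chr17:35439061-35439124 (plus strand) for H2-Q7 and chr2:122147579-122147643 (plus strand) for B2m, all upstream of the RefSeq gene start. The H2-D1 stretch lies inside the span of H2-D1-202, a transcript that starts at 35262730 and held 73.3% to 81.5% of the FPKM of H2-D1. There are 20 bases between the cores in H2-K1, H2-D1 and B2m and 19 in H2-Q7. The stretches of H2-K1 and H2-D1 shared 55 of 65 bases (84.6%), whereas each of them shared 32 of 65 bases (49.2%) with B2m. An X2 core followed by ATTGG after 14 to 24 bases, a spacing chosen after these windows had been read, was found in the windows of 4 genes, against 0.368% of the 32851 promoter windows in the table. The X2 core TGACG on either strand was found for 6 of the 8 genes and in 17.8% of all windows. Tap1 and Psmb9, which are transcribed away from each other, share 1 such core in overlapping windows. CCAAT on either strand was found for 7 of the 8 genes and in 33.8% of all windows, which includes the ATTGG of the pairs above. The GC box GGGCGG on either strand was found for Tap1, Tapbp and Psmb9 and in 32.7% of all windows. The CCAAT and the GC box of Tap1 and Psmb9 are also shared sites in the overlapping windows, so these counts are by gene and not by separate site.

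The interferon-stimulated response element, read here as GAAA, any 2 bases, then GAAA, was looked for in the same windows, because this pathway is an interferon target. It was found on either strand for 1 of the 8 genes, B2m, and in 2.98% of all windows. Only this exact string was searched, so variants of the element would be missed. A window without a match can still hold such a variant. The stretches below show the X2 core of Tap1 (chr17:34187440-34187504) and the interferon-type element of B2m (chr2:122147528-122147577), each on the plus strand and with the match in capitals.
Tap1: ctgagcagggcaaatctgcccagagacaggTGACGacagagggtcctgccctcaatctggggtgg
B2m: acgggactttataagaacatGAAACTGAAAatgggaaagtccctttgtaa
A match describes the letters of the window and does not show that a factor was bound in these mice.

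Most of the genes are neighbours. On GRCm38, 8 of the 10 genes lie on chromosome 17 between 33915899 and 35443773, an interval of 1.53 Mb within the mouse MHC. Tapbp (ENSMUSG00000024308.15) spans 33915899 to 33929292, H2-K1 (ENSMUSG00000061232.16) 33996017 to 34000347, Psmb9 (ENSMUSG00000096727.3) 34181987 to 34187764 and Tap1 (ENSMUSG00000037321.17) 34187553 to 34197225. Psmb8 (ENSMUSG00000024338.15) spans 34197721 to 34201454, Tap2 (ENSMUSG00000024339.12) 34203527 to 34216321, H2-D1 (ENSMUSG00000073411.12) 35262730 to 35267499 and H2-Q7 (ENSMUSG00000060550.16) 35439155 to 35443773. B2m (ENSMUSG00000060802.8) lies on chromosome 2 from 122147686 to 122153083, and Nlrc5 (ENSMUSG00000074151.13) on chromosome 8 from 94434356 to 94527272. The gene models of Psmb9 and Tap1 are on opposite strands and overlap by 212 bases, and no source used here says that strand was kept in counting, so reads in the overlap cannot be told apart. H2-K1, H2-D1, H2-Q7 and the other heavy chain genes are close paralogues whose reads can be shared between copies, and their separate values are uncertain for that reason.

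The values rest on reads on transcripts estimated from the deposited coverage. There were 53038186 and 50423542 in the Ob pair against 44310505 and 46668748 in the Ob + Exe pair, so both exercise libraries were shallower. The 10 genes had from 1195 (Nlrc5) to 56134 (H2-D1) such read equivalents in a library. With 2 libraries per group, the number of libraries limits the precision, and the two-sided p of an exact permutation test on any 1 value is 0.333 or more. The libraries were checked against their labels, which give bone marrow as the tissue but a stem cell name and fibroblast in other fields. Neutrophil and erythroid genes were the highest of the marker lists, with summed levels of 27211 to 62829 and 41627 to 64711 scaled FPKM (fragments per unit of transcript length and library size, scaled between libraries). The 11 mesenchymal and fibroblast markers summed to 121 to 176 scaled FPKM, of which Cxcl12 made up 89.3 to 143, and Pdgfra, Col3a1 and Lum were below 1 in every library. The values below were therefore read as those of whole marrow. In such bulk RNA, fewer cells of a type and less RNA per cell cannot be told apart.

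The 10 genes spanned a wide range of levels. B2m, the light chain shared by all class I molecules, had the highest mean over the 4 libraries with 672 scaled FPKM and ranked 63 among the 55401 genes. H2-D1 (440) and H2-K1 (392), the classical heavy chains, followed at ranks 100 and 113. The ranges of B2m and H2-D1 did not overlap, while those of H2-D1 and H2-K1 did. Tapbp (49.5), Psmb8 (41.9), Psmb9 (37.4), Tap1 (34.5), Tap2 (22.7) and H2-Q7 (15.6) came next, each with a range that overlapped that of its neighbour in the order, and Nlrc5 was the lowest with 4.27. B2m, H2-D1 and H2-K1 together held 86.5% to 89.6% of the summed FPKM of the 10 genes, and that sum was 1694 and 1673 in the Ob pair against 1745 and 1727 in the Ob + Exe pair. The ratio of B2m to H2-K1 plus H2-D1 was 0.975 and 0.733 in the Ob pair against 0.587 and 0.998 in the Ob + Exe pair, so that the lowest and the highest ratio were both found after exercise.

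**Figure D1:**
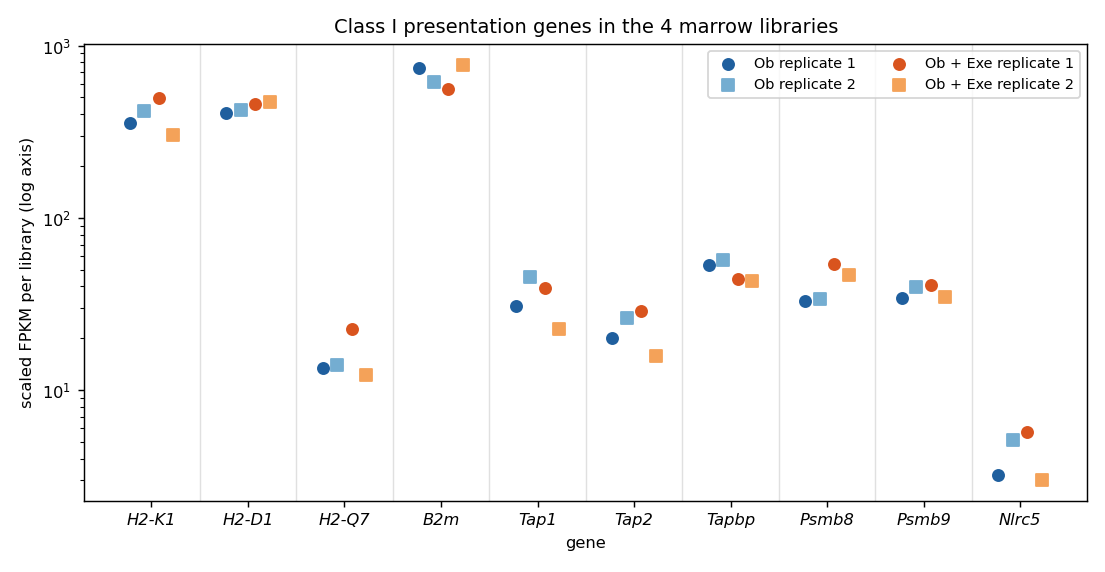
Scaled FPKM of the 10 genes (log axis) in the 2 Ob libraries (blue) and the 2 Ob + Exe libraries (orange), 1 point per library. B2m, H2-D1 and H2-K1 lie between 304 and 773, Nlrc5 lies between 3.01 and 5.74, and only H2-D1, Tapbp and Psmb8 have groups that do not overlap.

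Running was not accompanied by a called change in any of the 10 genes. A call needed both an unadjusted p under 0.05 in limma and a log2 change beyond 1 in either direction. Of the 10 genes, summed over their transcripts, 0 were called, beside 3.71% of the 18596 genes tested (690 genes), and 1 of the 10 genes, Psmb8, had an unadjusted p under 0.05, beside 5.02% of all genes tested. With limma voom on read equivalents, the other tool used, these counts were 0 and 1 as well. After Benjamini-Hochberg adjustment in limma, 0 genes of the whole table were under 0.05, and 933 genes were so before it. The groups did not overlap for 3 of the 10 genes, beside 32.7% of all genes tested. Of the 10 log2 fold changes, on the scale of log2(scaled FPKM + 0.1), 6 were above 0 and 4 below 0, with a median of 0.02 beside a median of -0.02 over all genes tested. Read against all genes tested, these counts do not set the 10 genes apart.

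Among the heavy chains, H2-K1, which encodes the K molecule, had 354 and 414 scaled FPKM in the Ob pair against 494 and 304 in the Ob + Exe pair. Its highest and lowest values were both in Ob + Exe, and its log2 fold change of 0.02 (standard error 0.302) had an adjusted p of 0.996 in limma. H2-D1, which encodes the D molecule, had 408 and 423 in the Ob pair against 457 and 471 in the Ob + Exe pair. Both exercise libraries lay above both obesity libraries, by a log2 fold change of 0.16 with a 95% confidence interval of -0.37 to 0.69 (adjusted p = 0.974 in limma). It averaged 416 ± 10.6 (SD, n = 2) in the Ob pair against 464 ± 9.49 (SD, n = 2) in the Ob + Exe pair, a difference of 1.12-fold that was larger than the spread between replicates but did not pass the test. The standard error in limma (0.214) also draws on the spread of other genes. H2-D1 was also the steadiest of the genes, since its highest library was 1.15-fold its lowest.

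H2-Q7 encodes a Qa-2 molecule, a nonclassical class I protein held in the membrane by a lipid anchor. It had 13.4 and 14.03 scaled FPKM in the Ob pair against 22.7 and 12.2 in the Ob + Exe pair, so that 1 exercise library lay above the others and 1 below them. The log2 fold change was 0.28 (95% confidence interval -0.55 to 1.11). The value rests on Ob + Exe replicate 1, without which it was -0.17, while without Ob + Exe replicate 2 it was 0.72 with an unadjusted p of 0.0271 in limma. H2-Q7 held only 6.05% to 9.59% of the summed FPKM of H2-Q4, H2-Q6, H2-Q7 and H2-Q10. Among the Q genes listed by hand, these were the ones with a level above 1. That sum was 140.0 and 232 in the Ob pair against 264 and 134 in the Ob + Exe pair. The ratio of H2-K1 to H2-D1 was 0.868 and 0.980 in the Ob pair against 1.08 and 0.646 in the Ob + Exe pair (p = 1 in a two-sided exact permutation test), and again the exercise libraries held both extremes.

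B2m had 743 and 614 scaled FPKM in the Ob pair against 558 and 773 in the Ob + Exe pair. The groups overlapped and the log2 fold change was -0.04 (95% confidence interval -0.73 to 0.65). B2m and H2-D1 were the only genes of the 10 that were higher in Ob + Exe replicate 2 than in Ob + Exe replicate 1. B2m was the only one that was lower in Ob replicate 2 than in Ob replicate 1.

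The transporter genes had their lowest values after exercise. Tap1 had 30.8 and 45.1 scaled FPKM in the Ob pair against 39.3 and 22.7 in the Ob + Exe pair, a log2 fold change of -0.32 (95% confidence interval -1.17 to 0.53). Tap2 had 19.96 and 26.2 in the Ob pair against 28.8 and 15.9 in the Ob + Exe pair, a log2 fold change of -0.10 (95% confidence interval -0.94 to 0.75). In both genes Ob + Exe replicate 2 was the lowest library and the other exercise library lay within or above the Ob range. Tap1 exceeded Tap2 in each library, with a ratio of 1.54 and 1.72 in the Ob pair against 1.36 and 1.43 in the Ob + Exe pair. These ratios did not overlap between the groups (log2 difference -0.22, p = 0.333 in a two-sided exact permutation test, which this design cannot go below).

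Tapbp, which encodes the bridge between the transporter and the heavy chain, had 53.3 and 57.2 scaled FPKM in the Ob pair against 44.2 and 43.3 in the Ob + Exe pair. Both exercise libraries lay below both obesity libraries, and the replicates within a group were close. It averaged 55.2 ± 2.702 (SD, n = 2) in the Ob pair against 43.8 ± 0.670 (SD, n = 2) in the Ob + Exe pair. The log2 fold change was -0.33 (95% confidence interval -0.80 to 0.13, unadjusted p = 0.1302, adjusted p = 0.96 in limma). The difference exceeded the replicate spread but did not pass the test, whose standard error (0.189) also draws on the spread of other genes. The fold change kept its sign in each of the 16 alternative settings that were run.

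Psmb8 encodes the chymotrypsin-like subunit of the immunoproteasome, which takes the place of the Psmb5 subunit. It had 32.8 and 34.0 scaled FPKM in the Ob pair against 54.2 and 46.7 in the Ob + Exe pair, from 3424, 3243, 5077 and 3679 read equivalents. Both exercise libraries lay above both obesity libraries. It averaged 33.4 ± 0.846 (SD, n = 2) in the Ob pair against 50.5 ± 5.30 (SD, n = 2) in the Ob + Exe pair, a 1.51-fold difference. The log2 fold change of 0.59 (standard error 0.199, 95% confidence interval 0.10 to 1.09) had an unadjusted p of 0.0263 and an adjusted p of 0.96 in limma, and it did not reach the fold threshold. With the replicate number as a block, the unadjusted p was 0.0991 in limma. Over the 16 alternative settings the unadjusted p ran from 0.0106 to 0.103 and stayed under 0.05 in 8 of them. In limma it was 0.103, 0.0932 and 0.0569 when Ob replicate 1, Ob replicate 2 or Ob + Exe replicate 1 was left out.

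Psmb9 encodes the immunoproteasome subunit that takes the place of Psmb6, and its promoter window and gene model overlap those of Tap1 on the opposite strand. It had 34.4 and 39.6 scaled FPKM in the Ob pair against 40.8 and 34.9 in the Ob + Exe pair. The groups overlapped, with a log2 fold change of 0.03 (95% confidence interval -0.49 to 0.55), and Psmb9 varied only 1.19-fold over the 4 libraries. Nlrc5, the class I transactivator, had 3.23 and 5.11 scaled FPKM in the Ob pair against 5.74 and 3.01 in the Ob + Exe pair. Its groups overlapped too, with a log2 fold change of 0.03 (95% confidence interval -1.04 to 1.11), and the exercise libraries held both the highest and the lowest value.

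The larger of the replicate differences exceeded the group difference for 7 of the 10 genes, and H2-D1, Tapbp and Psmb8 were the exceptions. Between replicates, 9 of the 10 genes were higher in Ob replicate 2 than in Ob replicate 1, and 8 of the 10 were higher in Ob + Exe replicate 1 than in Ob + Exe replicate 2. Of all genes tested, 49.0% were higher in Ob replicate 1 and 47.7% were higher in Ob + Exe replicate 1. Both orders held together for 8 of the 10 genes (all but H2-D1 and B2m), for 28.3% of all genes tested and for 31.4% of those with a mean FPKM of at least 1. This count was chosen after the values were seen and is given without a test. The median size of the replicate difference of the 10 genes was 0.21 on the log2 scale in Ob and 0.58 in Ob + Exe, beside 0.26 and 0.43 over every gene averaging 1 FPKM or more.

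**Figure D2:**
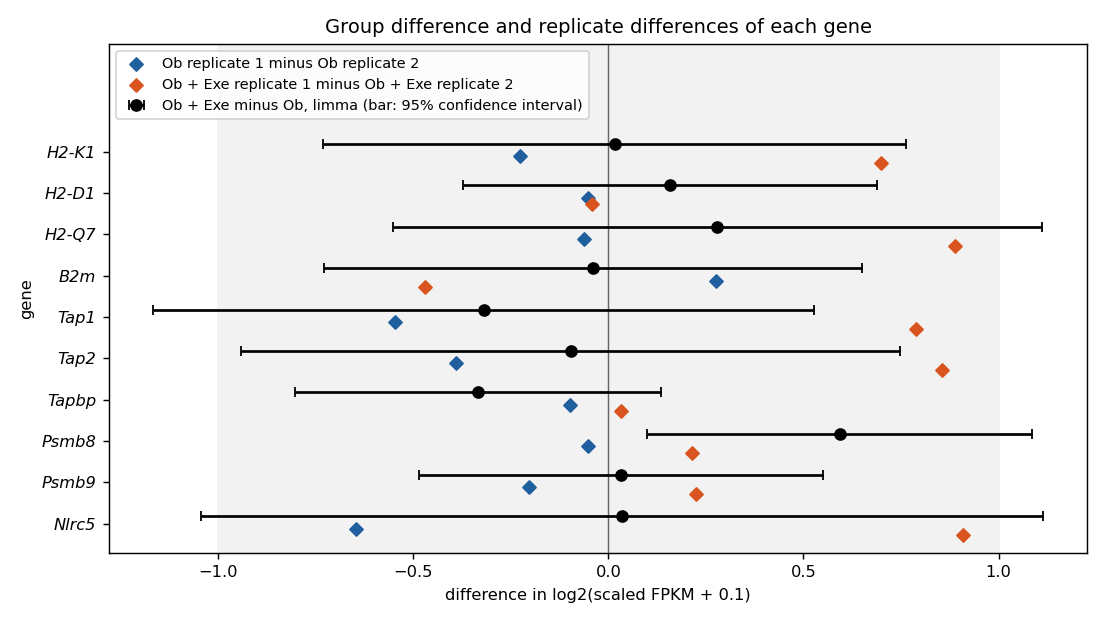
Group difference of each gene (black, with its 95% confidence interval from limma) and the difference between the 2 replicates of Ob (blue) and of Ob + Exe (orange), on the log2(scaled FPKM + 0.1) scale, with the range from -1 to 1 in grey. The interval of Psmb8 (0.10 to 1.09) is the only one that leaves out 0, and the orange points of Nlrc5, H2-Q7, Tap2, Tap1 and H2-K1 lie at 0.70 to 0.91.

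Of the 11 marker lists, 1 had sums in this order. The 17 interferon-stimulated marker genes summed to 317 and 553 scaled FPKM in the Ob pair against 393 and 308 in the Ob + Exe pair, with 11 of the 17 in the same order as the 8 class I genes. Of these 17 genes, 16 had a log2 fold change below 0 after exercise, with a median of -0.25, the groups did not overlap for 3 and 0 were called. The summed level of the 8 neutrophil markers was in the opposite order, at 47408 and 27211 in the Ob pair against 35021 and 62829 in the Ob + Exe pair, with 6 of the 8 in that opposite order and 0 in the order of the class I genes. B lineage markers summed to 1582 and 637 in the Ob pair against 853 and 888 in the Ob + Exe pair, mostly from Ighm. Of the 8 B lineage markers, 7 had a log2 fold change below 0, the groups did not overlap for 4, and Cd79a, a chain of the B cell receptor, was called lower (48.3 and 44.6 against 21.6 and 23.4, log2 fold change -1.04, unadjusted p = 0.00213, adjusted p = 0.943 in limma). For comparison with these 2 lists, 9693 of all 18596 genes tested had a log2 fold change below 0. The groups did not overlap for 32.7% of all genes tested, and 3.71% were called. T cell markers summed to 37.5 and 27.0 against 36.4 and 22.1, and dendritic cell markers to 359 and 214 against 283 and 236. Natural killer cell markers summed to 59.5 and 33.7 against 61.3 and 43.5. The defining genes Cd3e of T cells, Ncr1 of natural killer cells and Xcr1 of dendritic cells were at or below 2.52 in each library, and none of their lists held a marker at 0 in all libraries. Some markers of the same lists were higher. Trbc2 had 9.89 and 4.52 against 7.07 and 6.34, Nkg7 51.2 and 27.6 against 52.3 and 35.9, and Cd74 245 and 132 against 161 and 153. Among the marker lists, only the 4 skeletal muscle genes had sums that did not overlap between the groups, at 4.62 and 1.41 in the Ob pair against 6.55 and 7.17 in the Ob + Exe pair. The part of cell make-up, of muscle carried over or of interferon in the values of the class I genes was not tested.

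Immunoproteasome subunits were next set against the constitutive subunits that they replace. Psmb8 to Psmb5 was 0.569 and 0.595 in the Ob pair against 0.702 and 0.630 in the Ob + Exe pair, and the groups did not overlap (log2 difference 0.19, p = 0.333 in a two-sided exact permutation test, which this design cannot go below). Psmb5 itself had 57.6 and 57.1 scaled FPKM in the Ob pair against 77.4 and 74.2 in the Ob + Exe pair, a log2 fold change of 0.40 with an unadjusted p of 0.0772 in limma. The higher Psmb8 level after exercise thus came with a higher level of the subunit it replaces, and the ratio differed less between the groups than Psmb8 did.

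Psmb9 to Psmb6 was 0.621 and 0.667 in the Ob pair against 0.568 and 0.687 in the Ob + Exe pair (log2 difference -0.04, p = 1 in a two-sided exact permutation test). Psmb10, the third immunosubunit, to Psmb7 was 0.752 and 1.44 in the Ob pair against 2.33 and 0.809 in the Ob + Exe pair (log2 difference 0.40, p = 0.667 in a two-sided exact permutation test). This ratio varied the most of the 6, and it was high in Ob replicate 2 and in Ob + Exe replicate 1. Psmb10 had 25.1 and 32.1 scaled FPKM in the Ob pair against 44.4 and 24.6 in the Ob + Exe pair, and Psmb7 had 33.3 and 22.2 against 19.0 and 30.5. The ratio of Psmb9 to Tap1, whose promoter windows overlap, was 1.12 and 0.879 in the Ob pair against 1.04 and 1.54 in the Ob + Exe pair (p = 0.667 in a two-sided exact permutation test). Over the 6 ratios compared, the Benjamini-Hochberg adjusted p of each exact permutation test was 1.

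**Figure D3:**
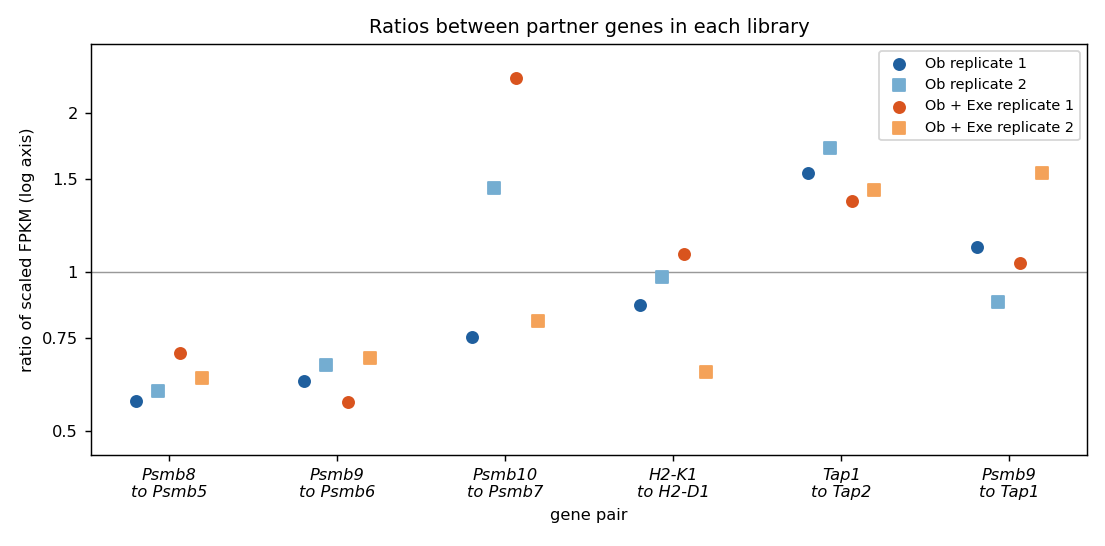
Ratios of scaled FPKM (log axis) between partner genes in the 2 Ob (blue) and 2 Ob + Exe (orange) libraries, 1 point per library, with a line at 1. Psmb8 to Psmb5 (0.569 to 0.702) and Tap1 to Tap2 (1.36 to 1.72) are the pairs whose groups do not overlap, and Psmb10 to Psmb7 runs from 0.752 to 2.33.

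The FPKM of a gene was also followed to its transcripts. The 10 genes have 70 annotated transcripts in the tables, 64 of which were above 0 in at least 1 library, and B2m has 1. StringTie divides the reads of a gene among transcripts that share most of their bases, so a transcript listed at 0 can be a failed estimate. Over the whole table, 65644 and 53352 transcripts were above 0 in the Ob pair. In the Ob + Exe pair 41028 and 48904 were, so zeros were more common there. Depth was also lower in that pair, as given above. The part of these differences in the zeros of single transcripts was not tested. Tap1-201 (2614 bases, 12 exons) and Tap1-206 (2953 bases, 11 exons) are both protein-coding transcripts of the Tap1 gene. Tap1-201 had 17.4 and 27.4 scaled FPKM in Ob and was listed at 0 in both Ob + Exe libraries. Tap1-206 had 8.52 and 9.68 in the Ob pair against 24.2 and 15.8 in the Ob + Exe pair.

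The share of Tap1 assigned to Tap1-201 was therefore 56.5% and 60.7% in Ob and 0% in both exercise libraries, while that of Tap1-206 was 27.7% and 21.5% against 61.6% and 69.8%. A transcript with at least 25% of its gene in both libraries of 1 group and a listed value of 0 in both libraries of the other was found in 1 of the 10 genes, beside 2.94% of the 10447 genes with several transcripts and a mean FPKM of at least 1. That share joins both directions. The rule was set after the Tap1 values were seen, and no test was made of it. Counted by Tap1-206 alone, its most abundant transcript, Tap1 would have a log2 fold change of 1.10 (unadjusted p = 0.0234 in limma), opposite in sign to the -0.32 of the gene, and would be called.

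Tap2-202, a transcript with a retained intron, had 6.36 and 17.6 scaled FPKM in the Ob pair against 1.56 and 0.123 in the Ob + Exe pair. The protein-coding Tap2-201 had 13.4 and 8.34 against 26.4 and 15.7, so that its share of the gene was 67.3% and 31.8% in the Ob pair against 91.7% and 99.2% in the Ob + Exe pair. Both shares lay apart between the groups. With protein-coding transcripts only, a setting added after the data were seen, the log2 fold change of Tap2 was 0.93 (unadjusted p = 0.0593 in limma), beside -0.10 for the whole gene.

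Psmb8-201, the leading protein-coding transcript, took 47.2% and 12.2% of Psmb8 in the Ob pair against 59.5% and 44.3% in the Ob + Exe pair. The retained-intron transcripts Psmb8-205 and Psmb8-206 took most of the rest, and Psmb8-206 was listed at 0 in Ob + Exe replicate 2 but held 44.8% in Ob replicate 2. The log2 fold change of Psmb8 was 1.66 with protein-coding transcripts only (unadjusted p = 0.0571 in limma), where Psmb8-201 had 15.5 and 4.14 scaled FPKM in the Ob pair against 32.3 and 20.7 in the Ob + Exe pair. The retained-intron transcript H2-K1-203 held 25.1% of H2-K1 in Ob replicate 2 and 0.508%, 6.38% and 0.846% in the other libraries.

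Tapbp was divided between the protein-coding Tapbp-201 and Tapbp-206. Tapbp-201 held 7.14% and 49.9% of the gene in the Ob pair against 43.7% and 7.20% in the Ob + Exe pair. Nlrc5-201 held 68.0% of Nlrc5 in Ob replicate 1 and was listed at 0 in the other 3 libraries, in which Nlrc5-207 led with 81.6% to 100%. The leading transcript was the same in all 4 libraries for 3 of the 9 genes with several transcripts (H2-K1, H2-D1 and Psmb9), beside 64.4% of the 10447 genes above. The 9 genes have 3 to 16 annotated transcripts each, and the 10447 genes were not matched to them in that number. This comparison was also added after the data were seen and was not tested.

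**Figure D4:**
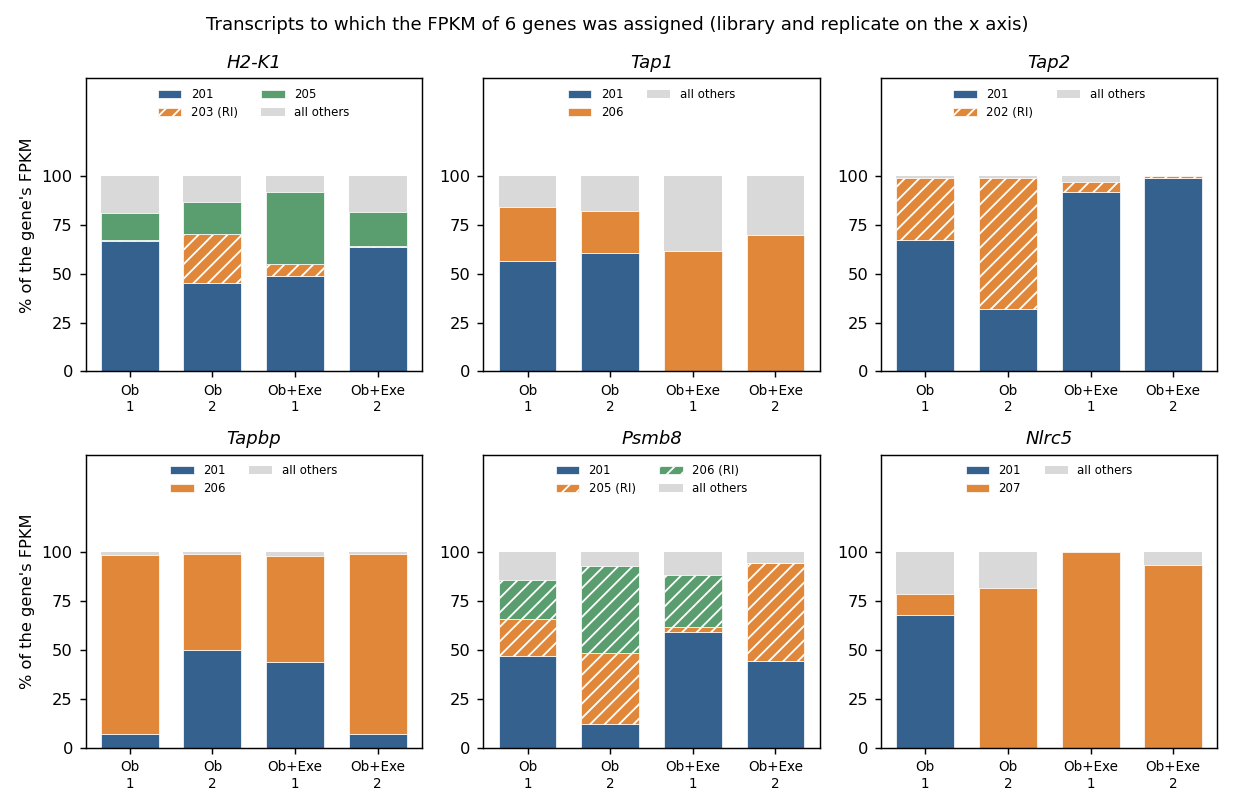
Share of each gene's FPKM (percent) assigned to its transcripts in the 4 libraries, for the 6 genes H2-K1, Tap1, Tap2, Tapbp, Psmb8 and Nlrc5, with hatched bars and RI for retained-intron transcripts and transcripts under 20% in all libraries joined in grey. Tap1-201 is at 56.5% and 60.7% in Ob and at 0% in both Ob + Exe libraries, whereas Tapbp-201 differs within both groups.

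The rest of the class I pathway was read from lists written by hand. Of 85 other genes, 79 were tested, 37 with a log2 fold change above 0 and 42 below 0, and 1 was called, beside 3.71% of all genes tested. The called gene was Cd1d2, a gene of the CD1 family, with 0.353 and 0.705 scaled FPKM in Ob (37 and 71 read equivalents) and a listed value of 0 in both Ob + Exe libraries (unadjusted p = 0.0179, adjusted p = 0.96 in limma). At this low level Cd1d2 dropped out of the test when a mean FPKM of 1 was required. Zeros were also more common in the Ob + Exe libraries over the whole table, as given above. The median log2 fold change of the 79 genes was -0.01, and the groups did not overlap for 23 of them, 13 higher and 10 lower after exercise, beside 32.7% of all genes tested.

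Of the other heavy chain genes, 12 of 18 were tested, 4 with a log2 fold change above 0 and 8 below. The highest were H2-T23, which encodes Qa-1, with 129 and 137 scaled FPKM in the Ob pair against 124 and 149.7 in the Ob + Exe pair, H2-Q6 with 51.7 and 97.8 against 101 and 45.3, and H2-Q4 with 44.5 and 79.4 against 97.4 and 35.3. H2-Q6 and H2-Q4 thus repeated the library order of H2-K1, and H2-T23 did not. Of the 9 other genes of peptide transport, trimming and loading, 0 were called. Hspa5 (96.3 and 72.2 in Ob, 93.5 and 110.0 in Ob + Exe) and the lectin chaperones Calr (88.3 and 51.9, 70.8 and 73.4) and Canx (76.9 and 57.9, 57.4 and 66.2), all general folding helpers of the endoplasmic reticulum, were the highest.

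Of the 6 other genes of the immunoproteasome and its activator 0 were called, and 4 of the 6 had a log2 fold change above 0. Psme3 had 110.1 and 110.7 scaled FPKM in the Ob pair against 89.4 and 130.4 in the Ob + Exe pair. Psme1, an interferon-induced activator subunit, had 71.3 and 71.0 against 86.6 and 53.3. Pomp, which helps assemble proteasomes, had 52.8 and 54.3 against 68.8 and 56.9. It was the only 1 of the 6 genes whose groups did not overlap, beside 32.7% of all genes tested.

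Of the 14 constitutive proteasome core genes 0 were called, and 10 of the 14 had a log2 fold change below 0. Psma1 (127 and 106 in Ob, 81.6 and 133 in Ob + Exe), Psmb4 (100.4 and 100.1, 104 and 97.9) and Psma6 (99.8 and 92.1, 60.5 and 129) were the highest. Psmb4 was steady over the libraries, while Psma1 and Psma6 were lowest in Ob + Exe replicate 1, the library in which H2-K1 was highest. Only 1 of the 14 genes was in the library order of the 8 class I genes. Over all pathway lists, that order held for 23 of the 79 other genes tested (29.1%), beside 28.3% of all genes tested. By list it ran from 0 of the 14 receptor genes to 7 of the 12 other heavy chain genes.

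Among the regulators, Nfya, Nfyb and Nfyc encode the factor that binds the Y box shown above, and they were the highest of their list. Nfya had 26.1 and 27.4 scaled FPKM in the Ob pair against 41.9 and 29.2 in the Ob + Exe pair, Nfyb 24.3 and 23.4 against 20.6 and 33.9, and Nfyc 19.0 and 16.1 against 15.4 and 14.3. Nfya was higher and Nfyc lower in both exercise libraries, and neither passed the test. The groups did not overlap for 3 of the 8 regulators, beside 32.7% of all genes tested. Of the 8 regulators 6 had a log2 fold change above 0, with a median of 0.24, and 0 were called.

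Of the 16 interferon signalling genes upstream of class I, 7 had a log2 fold change above 0 and 9 below 0, and 0 were called. Ifngr1, a chain of the interferon-gamma receptor, had 58.9 and 51.2 scaled FPKM in the Ob pair against 46.5 and 54.5 in the Ob + Exe pair. Irf9 had 34.5 and 66.7 against 42.8 and 43.0, and the kinase gene Jak1 had 42.0 and 34.6 against 39.2 and 50.3. The 14 genes listed by hand as receptors of class I were all tested and 0 were called, with 7 above 0 and 7 below. Lilrb4a, an inhibitory receptor of myeloid cells, had 137 and 152 scaled FPKM in the Ob pair against 201 and 202 in the Ob + Exe pair. Nothing in these data shows that it binds class I. Pirb, a receptor of class I on myeloid and B cells, had 43.0 and 42.1 against 50.2 and 54.2. In both genes the groups did not overlap, and the log2 fold changes were 0.48 (unadjusted p = 0.0508 in limma) and 0.29 (unadjusted p = 0.176 in limma). Over the list, the groups did not overlap for 7 of the 14 genes, 5 higher and 2 lower after exercise, beside 32.7% of all genes tested. Klrd1, the CD94 chain, had 11.4 and 10.3 against 8.39 and 13.9.

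**Figure D5:**
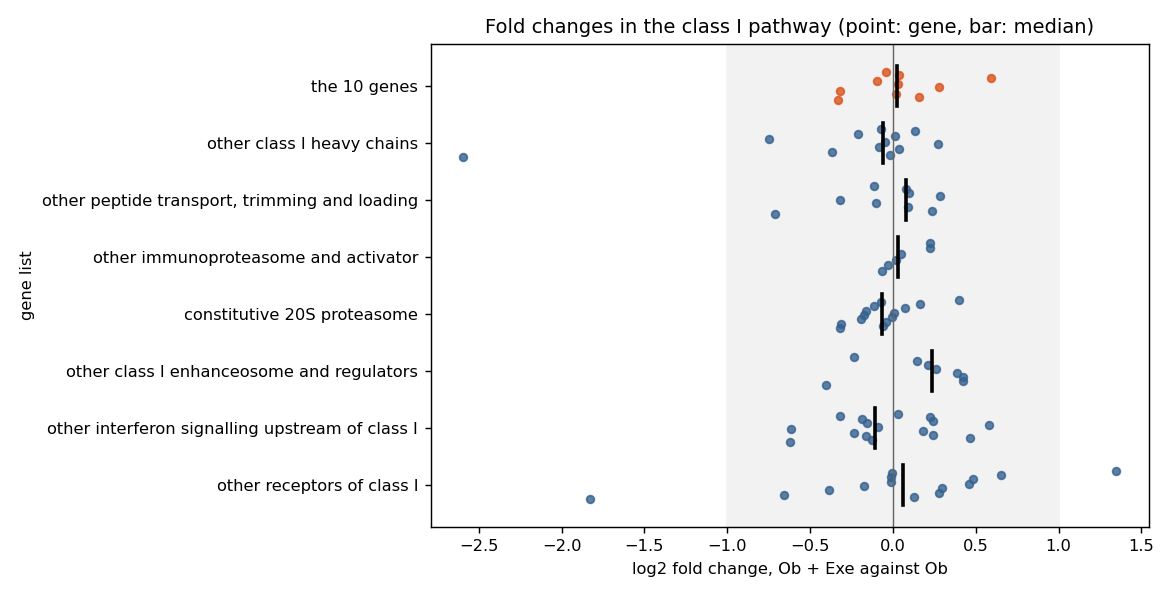
Log2 fold change (Ob + Exe against Ob) of the 10 genes (orange) and of the other tested genes of each pathway list (blue), 1 point per gene with the median as a bar and the range from -1 to 1 in grey. The 10 genes lie between -0.33 and 0.59, and Cd1d2 at -2.59 is the called gene.

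The neighbours of the 8 class I genes on chromosome 17 were read for comparison. The interval holds 156 other genes, of which 111 were tested, 52 with a log2 fold change above 0 and 59 below 0, with a median of -0.06. Of these, 3 were called, beside 3.71% of all genes tested, and they were Mpig6b, Sapcd1 and Gm15821. All 3 were lower after exercise, as were 508 of the 690 genes called in the whole table. Mpig6b, a receptor of megakaryocytes and platelets, had 7.88 and 8.15 scaled FPKM in the Ob pair against 4.57 and 0.981 in the Ob + Exe pair. Gm15821, whose gene model overlaps Tap2, had 1.43 and 1.05 against 0.525 and 0.244. These genes were named after their values were seen, and the 8 class I genes in the same interval were not called.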

How the data were processed

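RNA-seq was read from 1 transcript table per library. Per the submitters' processing notes and the methods of the study, reads were checked with FastQC, trimmed with fastp, freed of rRNA reads, aligned to GRCm38 with HISAT2, filtered with SAMtools and quantified on GENCODE vM25 with StringTie. The authors deposited for each transcript its read coverage, a signal not scaled for depth, and its FPKM, scaled to transcript length and library size. DESeq2 was the authors' test and needs counts, which coverage did not give as whole numbers. Coverage times length over 150 bases is given as read equivalents.

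From these files, transcript FPKM was summed to genes, and libraries were scaled by median-of-ratios factors (0.949 to 1.03, from genes whose mean FPKM was 1 or more and that had no 0). A mean FPKM of 0.1 was the minimum (18596 genes), and log2(FPKM + 0.1) was fitted by limma 3.58.1 (R 4.3.3), whose variance prior followed an intensity trend (3.73 prior and 2 residual degrees of freedom), with Benjamini-Hochberg adjustment over all genes tested. The thresholds for a call follow the study's methods. Fold changes on this scale understate the change of low genes. The steps were tested on simulated data. Transcript types came from GENCODE vM21 and matched 99.1% of transcripts. Tables were handled with Python 3.11.15, pandas 2.3.3 and scipy 1.17.1, and figures drawn with matplotlib 3.10.9.

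Groups and replicate numbers came from the labels. Nothing in the labels says that each library is a separate mouse, so p values concern these libraries only. Those of limma rest on the spread between libraries and on a variance prior taken from all genes tested. That prior carries more degrees of freedom than the libraries do. The genes, the pathway and marker lists and the tests were chosen with earlier results of these data known. Named are the 10 genes, other pathway genes with an unadjusted p under 0.05, the 3 with the highest mean FPKM in each list, the partner proteasome subunits, and the marker lists with their defining genes. Alternatives varied the minimum, the pseudocount and the scaling (none or quantile), dropped the trend or each library, added a replicate block, used limma voom on read equivalents, or kept only the most abundant transcript. The crossed pairing and the protein-coding transcripts were chosen after seeing the data. The result of 1 further motif searched in the promoters is not reported here.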

Additional observations from a re-analysis of the deposited data

How the results depend on the processing

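Of the 10 class I genes, 0 were called under the alternatives run except with the most abundant transcript only, a count added after seeing the data, where 1 was called (Tap1). The number of calls over all genes (690) was 267 with a minimum mean FPKM of 1, 224 with a pseudocount of 1, 1061 without the intensity trend and 455 with limma voom, and ran from 601 to 1853 with 1 library left out. The count of class I genes with an unadjusted p under 0.05 in limma (1, Psmb8) was 0 without scaling, 0 without the trend, 0 with protein-coding transcripts only and 0 with the replicate block, and 0 to 2 with 1 library left out. The count of other pathway genes called (1) was 0 with a minimum mean FPKM of 1, 2 with no minimum and 0 with a pseudocount of 1, and 1 to 2 with 1 library left out. The median log2 fold change of the 10 genes was lowest, at -0.25, when Ob + Exe replicate 1 was left out and highest, at 0.23, when Ob + Exe replicate 2 was. The log2 difference of Psmb8 to Psmb5 was 1.27 with the most abundant transcripts only.

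Tapbp, H2-D1 and Psmb8 kept their direction in all alternatives run, and the other 7 genes changed sign in some. Without scaling, the log2 fold changes of H2-K1, Psmb9 and Nlrc5 were -0.067, -0.051 and -0.046. With quantile normalization those of H2-K1 and Psmb9 were -0.056 and -0.0066, and with limma voom those of H2-K1 and Tap2 were -0.0067 and 0.055. With the most abundant transcript only, H2-Q7 was at -0.16, Tap1 at 1.10 and Tap2 at 0.94, and with protein-coding transcripts only Tap2 was at 0.93. With 1 library left out, the log2 fold changes ran from -0.34 to 0.36 for H2-K1, -0.17 to 0.72 for H2-Q7, -0.28 to 0.19 for B2m, -0.72 to 0.067 for Tap1, -0.53 to 0.32 for Tap2, -0.083 to 0.14 for Psmb9 and -0.42 to 0.48 for Nlrc5. The cause of these changes was not tested.

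The replicate numbers do not show a pairing of the libraries: the difference of replicate 1 from replicate 2 in Ob correlated with that in Ob + Exe at -0.106 across all genes tested and at -0.244 over those with a mean FPKM of at least 1, genes which are not independent replicates. The replicate block gave 776 calls and an adjusted p under 0.05 in limma for 28 genes, none of them among the 10 genes. The crossed pairing, Ob replicate 1 with Ob + Exe replicate 2, gave 782 calls and 6 genes with an adjusted p under 0.05 in limma. A fit without 1 library assumes that the lone library of its group varies like the others. Read sharing between heavy chain paralogues could not be resolved from coverage.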
